A study of Rattus norvegicus with 34 samples.

Results

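The 7 genes described here, Cd79b, Ms4a1, Cd22, Blnk, Btk, Pax5 and Cd37, mark B cells or build the B cell receptor pathway, and were taken by symbol from the 13337 genes of the rat expression array. Each had 1 probe, and 5 of the 7 were among the 6760 genes whose mean intensity over all arrays exceeded the background limit. Cd22 and Pax5 did not exceed it. The study asked whether genes that respond to doxorubicin (DOX, an anthracycline cancer drug that can injure the heart) in blood cells follow those that respond in the heart. Female Sprague-Dawley rats were killed 48 h after 1 intraperitoneal dose of 12 mg/kg DOX (9 rats) or saline (8 rats). Peripheral blood mononuclear cells (PBMC, the lymphocytes and monocytes left after a density gradient) and left ventricle were profiled, with 1 array per rat and tissue analysed here, giving 9 DOX and 8 saline arrays in each tissue and 34 arrays in all.

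B cells carry a surface immunoglobulin that signals through the paired chains CD79a and CD79b. When antigen is bound, kinases of the SRC family and SYK are engaged, the adaptor BLNK gathers the signaling enzymes, and BTK activates phospholipase C gamma, while CD22 dampens the response. PAX5 is the transcription factor that commits a precursor to the B lineage and holds it there. Circulating lymphocytes, B cells among them, are known to be sensitive to anthracyclines.

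The PBMC arrays were grouped in 2 ways, because the titles and the published gene list of the study did not name the same arrays as treated. By label, the arrays titled DOX 1 to 9 were set against those titled saline 1 to 8. In the grouping that the published list follows, the 9 arrays titled saline 1 to 8 and DOX 1 form the DOX side, and the 8 arrays titled DOX 2 to 9 form the control side. These 2 groupings put 16 of the 17 PBMC arrays on opposite sides and are therefore close to mirror images of each other, not independent comparisons. Which of them gives the treatment cannot be told apart from the values used here, and every PBMC result is given both ways. All values are log2 intensities above the median of the probes not expressed on the same array, so that 0 is background.

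The arrays themselves differed along the same lines. The median of the expressed genes ran from 0.32 to 2.17 on the PBMC arrays labelled DOX and from 0.30 to 1.46 on those labelled saline. It ran from 0.30 to 1.46 on the DOX side and from 1.70 to 2.17 on the control side, and in the heart from 0.22 to 0.70 with DOX and from 1.32 to 1.79 with saline. The number of distinct values on an array ran from 2804 to 5746 on the DOX side of PBMC against 22278 to 22419 on the control side, and from 2826 to 4802 on the heart arrays labelled DOX against 22196 to 22417 on those labelled saline. In the heart and in the published PBMC grouping, treatment and this difference between arrays cannot be told apart. The arrays titled DOX 1 and saline 4 stood apart from their label in several B cell genes. For these genes, ranges without 1 or the other of them are given below. Cardiac muscle markers (6 genes) averaged at most 0.07 on every PBMC array and at least 3.34 on every heart array. Of the defining B cell markers, Cd79b and Ms4a1 were measured above background in PBMC and Pax5 was not. Since these are bulk samples, a change in the number of B cells and a change in RNA per B cell cannot be told apart.

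Promoter sequence was found for 4 of the 7 genes (Cd22, Cd37, Blnk and Btk) in the RefSeq table of the GRCr8 rat assembly, which holds 250 bases before and 50 after each listed start. Only the Blnk window reaches beyond the listed span of its gene. The Cd22, Cd37 and Btk windows lie inside that span, and positions are counted from these internal starts. The 3 shown are those of the measured members, Cd37 and Blnk, whose PBMC values separated the sides of the published grouping, and Btk, whose heart values separated DOX from saline. Capitals mark matches to the octamer ATGCAAAT, the site that OCT factors bind in B cell genes, or to the core GAGGAAG, which ETS factors such as PU.1 can bind, each read on both strands. The sequences run 5′ to 3′ on the strand of the gene, which is the minus strand in all 3 (Cd37 at chr1:104860735-104861034, Blnk at chr1:249770484-249770783, Btk at chrX:102055094-102055393).
Cd37: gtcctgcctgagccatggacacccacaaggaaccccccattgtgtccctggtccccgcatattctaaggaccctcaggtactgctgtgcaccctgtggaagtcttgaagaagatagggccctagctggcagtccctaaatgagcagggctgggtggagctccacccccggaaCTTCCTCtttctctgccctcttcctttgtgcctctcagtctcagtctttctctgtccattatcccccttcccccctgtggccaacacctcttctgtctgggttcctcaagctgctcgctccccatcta
Blnk: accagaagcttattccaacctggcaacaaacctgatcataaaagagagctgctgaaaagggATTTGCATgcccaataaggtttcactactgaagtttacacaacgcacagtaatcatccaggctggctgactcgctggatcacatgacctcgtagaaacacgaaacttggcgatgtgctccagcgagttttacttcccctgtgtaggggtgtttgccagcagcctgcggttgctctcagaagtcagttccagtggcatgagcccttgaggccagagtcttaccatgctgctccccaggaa
Btk: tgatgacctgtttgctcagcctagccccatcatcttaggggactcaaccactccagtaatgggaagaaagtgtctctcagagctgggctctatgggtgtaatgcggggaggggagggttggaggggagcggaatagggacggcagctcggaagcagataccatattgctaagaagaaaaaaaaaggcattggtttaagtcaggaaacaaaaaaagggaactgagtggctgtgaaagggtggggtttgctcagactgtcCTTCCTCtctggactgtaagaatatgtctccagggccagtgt
The octamer lies in the Blnk window only, on the opposite strand and starting at -189, and is found in 1.78% of all 33469 promoters. GAGGAAG lies in the Cd37 window at -78 and the Btk window at 9, both on the opposite strand, as well as in that of Cd22 at -64, and is found in 12.4% of all promoters. Of 2 further motifs read on both strands, CANNTG was found in the windows of Cd22 and Blnk (72.1% of all promoters), and TATAAA (14.2%) in none of the 4. No capitalised match overlaps another. These matches describe the letters and were not tied to any measured difference.

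In PBMC, the 5 B cell genes that passed the background limit differed between the groups, and their direction depended on the grouping. By label, 5 of 5 were called higher in DOX than in saline (limma, Benjamini-Hochberg adjusted p under 0.05 and over 2-fold), beside 44.5% of all 6760 genes. In the published grouping, 5 of 5 were called lower on the DOX side than on the control side, beside 54.4% of all genes. The direction by label is opposite to the direction in the published list. The background limit was set on the mean of all 34 arrays, and genes near background in the heart pass it through the brighter PBMC arrays, so that the counts of 5 are descriptions. Tested without that limit, 4 of the 7 genes were called higher by label, beside 22.1% of 13337 genes, with Ms4a1 lost (adjusted p = 0.061), and 5 of the 7 were called lower on the DOX side, beside 27.5%. The median log2 difference of the 5 genes was 1.15 by label, where that of all genes was 0.90, and -1.60 in the published grouping, where that of all genes was -1.12. Only part of the shift therefore separates these genes from the other genes on the arrays, and that part depended on the filter. Among the 3450 genes passing a stricter limit, the medians of all genes were 1.39 by label and -1.74 in the published grouping. Ms4a1 (1.14 and -1.60) and Btk (1.15 and -1.47) fell short of these medians. Cd79b (2.34 and -2.65) and Cd37 (3.28 and -3.80) stayed beyond them, and Blnk did not pass that limit. The class of arrays by number of distinct values was also used as a block, a setting chosen after seeing the data. It leaves DOX 1 as the only array labelled DOX beside saline arrays of its class. The median of all genes by label then changed sign, to -0.22. Cd79b (-0.11), Ms4a1 (-1.37), Btk (-0.75) and Cd37 (-0.45) changed sign with it, while Blnk was at 0.29.

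**Figure D1:**
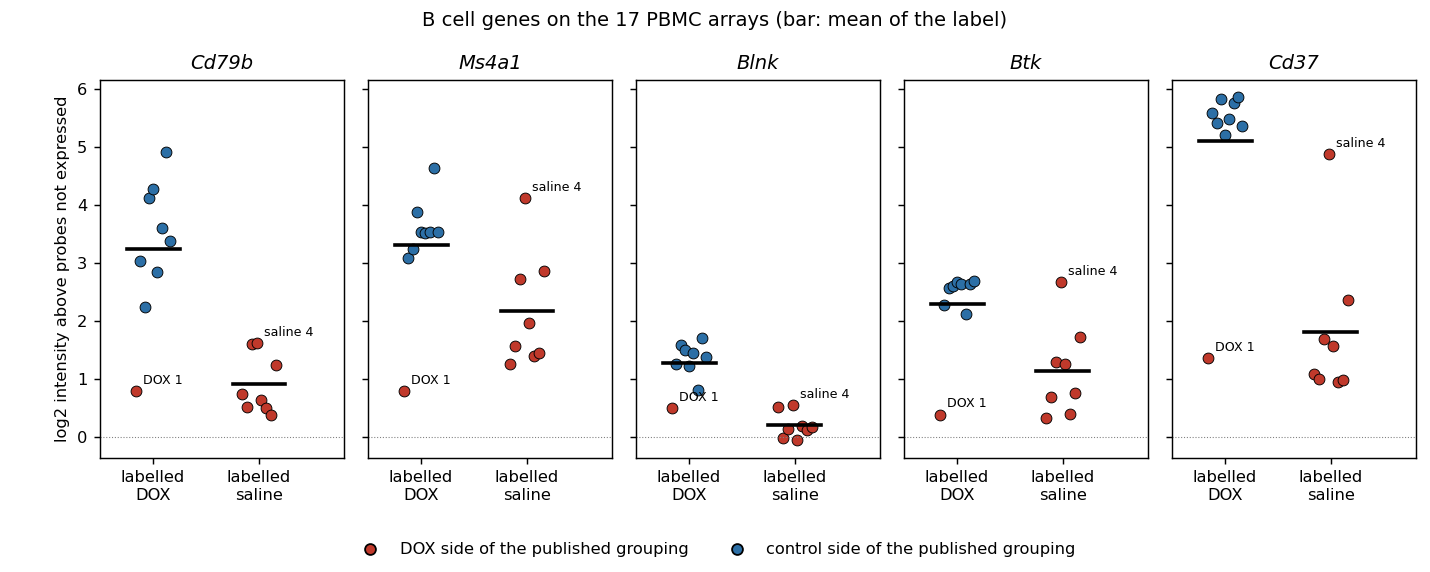
Log2 intensity above the probes not expressed (vertical axis) of the 5 measured B cell genes on the 17 PBMC arrays, with arrays labelled DOX left of those labelled saline and the bar at the mean of each label. Colour gives the side in the published grouping: DOX 1 lies low among the arrays labelled DOX for Cd79b, Ms4a1, Blnk, Btk and Cd37, and saline 4 is the highest array labelled saline in all 5.

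Cd79b, the signaling chain of the B cell receptor, ran from 0.79 to 4.91 (median 3.37) on the PBMC arrays labelled DOX and from 0.38 to 1.61 (median 0.69) on those labelled saline. The 2 labels overlapped only through DOX 1, at 0.79 (no overlap by label was found in 3.34% of all genes with DOX higher and in 0.0444% with DOX lower), since the lowest of the other 8 arrays labelled DOX was 2.23. The difference was 2.34 ± 0.45 (log2, SE, adjusted p = 0.000315, limma). On the DOX side of the published grouping the values ran from 0.38 to 1.61 (median 0.73), and on the control side from 2.23 to 4.91 (median 3.48), with no overlap. The difference was -2.65 ± 0.32 (adjusted p = 8.86e-07), and groups that did not overlap in this direction were found for 38.4% of all genes. Set against the median of all genes, Cd79b lay 1.44 above it by label and -1.53 from it in the published grouping, where 7.84% of genes had a lower difference.

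Ms4a1 encodes CD20, the membrane protein that is the target of anti-CD20 antibodies. Its level ran from 0.79 to 4.63 (median 3.53) on the arrays labelled DOX and from 1.26 to 4.11 (median 1.77) on those labelled saline, and the labels overlapped at both ends, with DOX 1 the lowest of all 17 arrays and saline 4 the second highest. By label the difference was 1.14 ± 0.47 (adjusted p = 0.0403, limma). This call was lost when any 1 of 12 arrays was left out (saline 1, 2, 5, 6 or 7, or DOX 3, 4, 5, 6, 7, 8 or 9), with differences from 0.97 to 1.15. On the DOX side of the published grouping the values ran from 0.79 to 4.11 (median 1.57), against 3.09 to 4.63 (median 3.53) on the control side. The sides overlapped through saline 4, and without it the DOX side reached only 2.86. There the difference was -1.60 ± 0.38 (adjusted p = 0.000943), which kept its call without each array in turn. Ms4a1 was 0.24 above the median of all genes by label and -0.48 from it in the published grouping, and 33.4% of genes had a lower difference in the published grouping.

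Cd37, a tetraspanin of mature B cells that other leukocytes also carry, showed the widest difference of the 7 genes. It ran from 1.36 to 5.85 (median 5.48) on the arrays labelled DOX, against 0.94 to 4.87 (median 1.33) on those labelled saline. DOX 1, at 1.36, was the only array labelled DOX below 5.20, and saline 4, at 4.87, was the only array labelled saline above 2.36. The difference by label was 3.28 ± 0.64 (adjusted p = 0.000361, limma). In the published grouping the DOX side ran from 0.94 to 4.87 (median 1.36) and the control side from 5.20 to 5.85 (median 5.53), with no overlap and a difference of -3.80 ± 0.43 (adjusted p = 4.45e-07). Of the 6760 genes, 36 had a higher difference by label and 35 a lower one in the published grouping. Cd37 therefore stood 2.38 above the median of all genes by label and -2.67 from it in the published grouping.

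Blnk, the adaptor that couples SYK to BTK and phospholipase C, ran from 0.49 to 1.71 (median 1.37) on the arrays labelled DOX and from -0.06 to 0.56 (median 0.16) on those labelled saline. DOX 1, at 0.49, lay within the saline range, and the other 8 arrays labelled DOX began at 0.81. The difference by label was 1.07 ± 0.16 (adjusted p = 5.89e-05, limma). In the other grouping, the DOX side ran from -0.06 to 0.56 (median 0.18) and the control side from 0.81 to 1.71 (median 1.41). The sides did not overlap, and the difference was -1.13 ± 0.12 (adjusted p = 3.31e-07). Blnk was 0.17 above the median of all genes by label and -0.0053 from it in the published grouping, with 49.8% of genes lower, so that it moved as the typical gene of the 6760 did.

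Btk, the kinase whose loss causes X-linked agammaglobulinaemia in humans and which myeloid cells also use, ran from 0.38 to 2.69 (median 2.60) on the arrays labelled DOX. On the arrays labelled saline it ran from 0.33 to 2.66 (median 1.01). The labels overlapped through DOX 1, at 0.38, and saline 4, at 2.66. By label the difference was 1.15 ± 0.35 (adjusted p = 0.00846, limma). On the DOX side of the published grouping the values ran from 0.33 to 2.66 (median 0.76), against 2.12 to 2.69 (median 2.62) on the control side, and without saline 4 the DOX side ended at 1.72, below every control array. The difference was -1.47 ± 0.27 (adjusted p = 8.95e-05), which is -0.35 from the median of all genes.

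Cd22, the inhibitory lectin receptor of B cells, and Pax5 stayed at background on every PBMC array. Cd22 lay between -0.10 and 0.33 and Pax5 between -0.27 and 0.28, with both groupings overlapping. Neither was called in either grouping when all 13337 genes were tested. A probe at background gives only an upper limit, and a difference in these 2 transcripts was not detectable here.

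**Figure D2:**
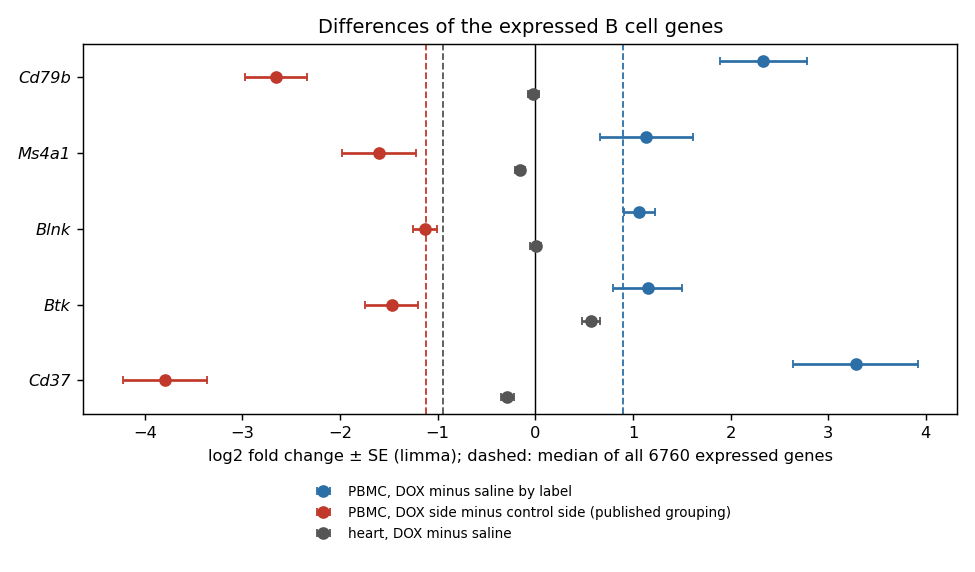
Log2 fold change with its SE (horizontal axis) of the 5 measured B cell genes in PBMC by label, in PBMC by the published grouping and in heart, with dashed lines at the median of all 6760 expressed genes in the same comparison. Cd37 (3.28 and -3.80) and Cd79b (2.34 and -2.65) lie farthest beyond the PBMC medians of 0.90 and -1.12, Blnk lies near them, and all heart values lie above the heart median of -0.94. These genes lay near background on the saline hearts, where a fall of that size was not detectable.

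Among the 8 arrays titled DOX 2 to 9, the B cell genes also varied unequally. Cd79b had an SD of 0.87 over these arrays, more than 99.5% of the expressed genes, whose median SD was 0.25, and Ms4a1 had 0.47, more than 94.8% of them. The SDs of Blnk (0.28), Cd37 (0.24) and Btk (0.21) were near that median. The array titled DOX 8 had the highest level of Cd79b (4.91), Ms4a1 (4.63), Blnk (1.71) and Cd37 (5.85) among the 8, while Btk was highest on DOX 9 (2.69). DOX 8 was also the PBMC array with the highest median of expressed genes (2.17). The lowest array differed by gene: DOX 3 for Cd79b (2.23), DOX 2 for Ms4a1 (3.09), DOX 7 for Blnk (0.81) and Btk (2.12), and DOX 5 for Cd37 (5.20). Within the 9 arrays of the other side, saline 4 was the highest for all 5 genes, with Cd79b on saline 3 (1.60) close to it.

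The mean of the 5 genes on an array followed the brightness of that array in PBMC but not in heart. In PBMC it ran from 0.77 to 3.95 on the arrays labelled DOX and from 0.69 to 2.76 on those labelled saline, and in the published grouping from 0.69 to 2.76 on the DOX side and from 3.004 to 3.95 on the control side. Saline 4, the array labelled saline with the highest mean of the 5 genes, was also the one with the highest median of expressed genes. Many other genes shared the pattern: 49.8% of the 6755 other genes had a Pearson r over 0.9 to the mean of the 5 over the 17 PBMC arrays, with a median r of 0.90. The genes most alike were Eftud2 (r = 0.995), Tesk1 (0.995), Rrp7a (0.995), Ap2b1 (0.994) and Tprn (0.994), none of which is on the B cell lists. These arrays share the 2 classes of brightness, and r is given as a description. Within the arrays of each side, r for these 5 genes was 0.97 to 0.99 on the DOX side and 0.89 to 0.96 on the control side.

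**Figure D3:**
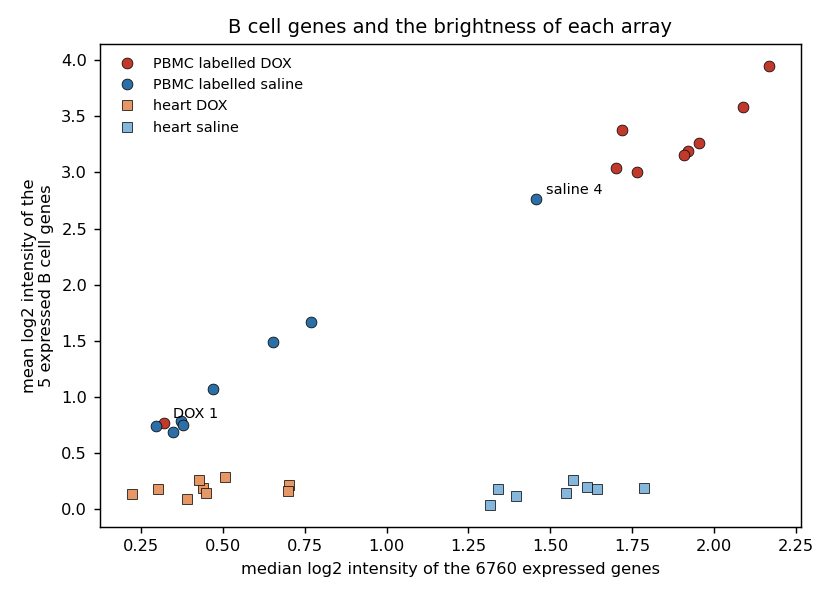
Mean log2 intensity of the 5 measured B cell genes (vertical axis) against the median log2 intensity of the 6760 expressed genes (horizontal axis), 1 point per array, with the 17 PBMC arrays as circles and the 17 heart arrays as squares. In PBMC the arrays with a higher median also have a higher B cell mean, from 0.69 to 3.95, while the heart arrays stay between 0.04 and 0.28 at any median.

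Other genes of B cells were called in some cases and not in others, beside 44.5% of all genes higher by label and 54.4% lower in the published grouping. Of 18 listed surface and receptor genes, 11 were on the array and 7 measured, and 4 of these were higher by label and 4 lower in the published grouping, close to the shares of all genes. Cd72, an inhibitory co-receptor of B cells, differed by 2.05 by label and -2.33 in the published grouping (adjusted p = 0.000109 and 1.94e-08, limma). Cd24 differed by 2.54 and -2.99, while Cr2, the complement receptor of mature B cells, was not called, at 0.36 and -0.23. The median of the 7 was 2.05 by label and -2.33 in the published grouping. Among B cell receptor signaling genes, 16 were measured of 20 listed, 13 were higher by label and 14 lower in the published grouping, and their median was 1.62 and -1.81. Syk, the kinase that binds the phosphorylated CD79 chains, differed by 2.66 and -3.06. Lyn, a SRC family kinase also used by myeloid cells, was at 0.05 and 0.41 and was not called in either, and Blk, a SRC family kinase of B cells, was at 0.81 and -0.92, short of the 2-fold limit. Of 16 listed B cell transcription factors, 8 were measured, with 5 higher by label and 7 lower in the published grouping (median 1.66 and -1.86). Ebf1, which works with PAX5 in B cell commitment, differed by 1.76 and -2.04, and Ikzf1 by 1.55 and -1.69, while Spi1, which encodes PU.1, was at 0.47 and -0.54 and not called. Of the plasma cell and immunoglobulin genes only Mzb1 was measured, at 0.64 and -0.92, and it was not called.

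Markers of other blood cells differed beside the B cell genes, and their counts stand beside the same shares of all genes (44.5% higher by label, 54.4% lower in the published grouping). Of 8 measured T cell markers, 6 were higher by label and 8 lower in the published grouping (median 1.86 and -2.24), and Cd3e differed by 2.81 and -3.31, Cd3d by 0.91 and -1.42, and Cd3g by 1.02 and -1.68. Of 5 NK cell markers, 3 were higher by label and 4 lower in the published grouping, with Nkg7 at 1.87 and -2.52, Gzmb at 1.77 and -2.09, and Klrd1 at 0.86 (not called) and -1.48. Of 4 monocyte markers, 1 was higher by label and 3 lower in the published grouping, with Itgam at 0.90 (not called) and -1.07, Fcgr3a at 1.12 (not called) and -1.72, and Cd14 at 0.43 and -0.69 (called in neither). The 6 all-leukocyte markers were not of 1 direction: 4 were higher and 1 lower by label, and 5 lower and 1 higher in the published grouping. Ptprc, the CD45 antigen, differed by 3.91 and -4.49, Laptm5 by 2.19 and -2.88, and Coro1a by 0.75 (not called) and -1.63, while Cd52, named after its values were seen, differed by -1.92 and 1.53 (adjusted p = 0.00146 and 0.0141, limma). The neutrophil markers went the other way: S100a8 was at -4.10 by label and 4.53 in the published grouping, S100a9 at -1.33 (not called) and 2.22, and Camp at -1.05 and 0.89 (not called). The mean of the 3 neutrophil markers ran from 2.34 to 4.15 on the DOX side and from 0.21 to 1.52 on the control side, and the other 4 listed neutrophil genes did not pass the background limit. Of 4 measured platelet markers 1 was lower by label (Ppbp at -1.47, against Pf4 at -0.29 and Gp9 at 0.12, not called), and of 4 red cell markers 1 (Alas2 at -1.64, against Hbb at -0.34 and Slc4a1 at -0.28, not called). None of these 8 was called in the published grouping, where Ppbp was at 0.97, Pf4 at -0.24, Gp9 at -1.01, Alas2 at 0.96, Hbb at -0.06 and Slc4a1 at 0.10. The part of these cells in the difference of the B cell genes was not tested.

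In the heart, the B cell genes were at or near background, and none of the 5 was called higher or lower, beside 1.36% of all genes called higher and 48.2% called lower. Their mean ran from 0.09 to 0.28 on the DOX arrays and from 0.04 to 0.26 on the saline arrays. Cd79b lay between 0.0039 and 0.29 with DOX and between 0.0061 and 0.26 with saline, a difference of -0.02 ± 0.06 (adjusted p = 0.729, limma). Blnk lay between 0.02 and 0.32 with DOX and between 0.02 and 0.27 with saline, a difference of 0.0039 ± 0.057 (adjusted p = 0.950). Ms4a1, at -0.24 to -0.02 with DOX and -0.05 to 0.13 with saline, differed by -0.16 ± 0.05 (adjusted p = 0.00706), and Cd37, at -0.12 to 0.20 with DOX and 0.05 to 0.50 with saline, by -0.29 ± 0.07 (adjusted p = 0.000495). Both differences passed on p but were far short of 2-fold and arose at background levels, and both pairs of groups overlapped. Cd22 lay between -0.19 and 0.07 and Pax5 between -0.27 and 0.19 on all heart arrays.

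Btk was the exception in the heart. Its level ran from 0.37 to 1.08 (median 0.77) on the DOX arrays and from 0.06 to 0.31 (median 0.18) on the saline arrays, and the groups did not overlap, as held in this direction for 1.82% of all genes, where 63.4% had all DOX arrays below all saline arrays. The difference was 0.57 ± 0.10 (log2, SE, adjusted p = 1.9e-05, limma), under the 2-fold limit, and 97.4% of genes had a lower difference. It was 1.51 above the median of all genes in the heart, which was -0.94. Btk lay near background on the saline arrays, where a fall of that size was not detectable. Its rank above most genes was therefore largely fixed in advance. Cd79b and Blnk, at differences of -0.02 and 0.0039, also had 87.9% and 88.8% of genes below them. With each array left out in turn the Btk difference ran from 0.53 to 0.62. Beside it, 2 of the 3 measured neutrophil markers were higher with DOX (S100a8 by 1.92 and S100a9 by 1.35), and their mean ran from 0.77 to 1.94 on the DOX arrays and from 0.12 to 0.54 on the saline arrays. Camp was at -0.04 and not called. Lcn2, a neutrophil granule gene that did not pass the background limit and was named after its values were seen, went the other way, at -0.02 to 0.58 with DOX and 0.71 to 1.25 with saline. The mean of 4 monocyte markers ran from -0.06 to 0.16 with DOX and from 0.22 to 0.62 with saline. Of the 5 measured NK cell markers none was called. Gzmb was at 0.59 and the others were below 0, with Klrd1 at -0.05 and Nkg7 at -0.71. The part of these cells in the Btk difference was not tested.

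**Figure D4:**
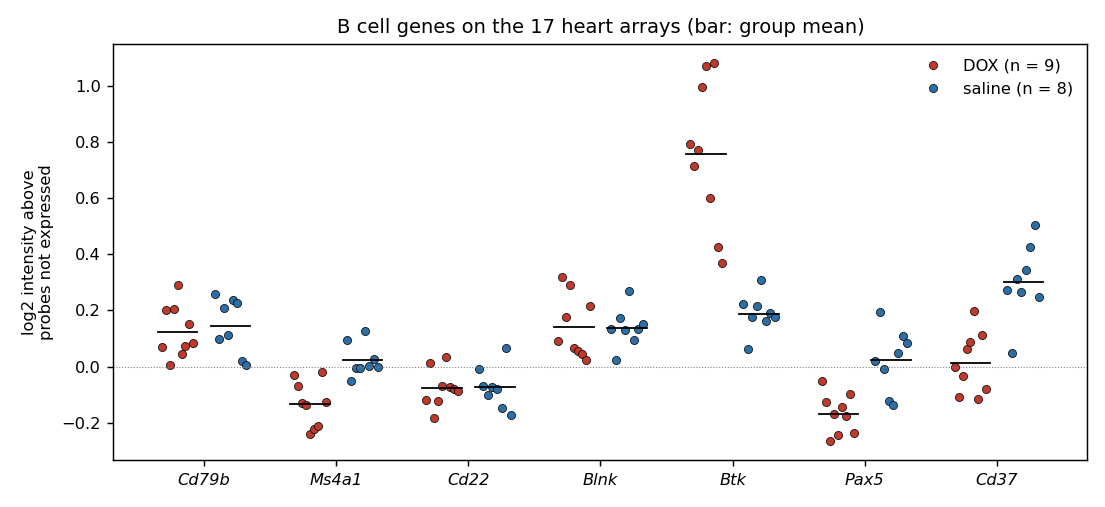
Log2 intensity above the probes not expressed (vertical axis) of the 7 B cell genes on the 17 heart arrays, DOX (n = 9) left of saline (n = 8) and the bar at the mean of each group. Btk, at 0.37 to 1.08 with DOX and 0.06 to 0.31 with saline, is the only gene of the 7 whose DOX arrays all lie above its saline arrays, and the other 6 lie between -0.27 and 0.50.

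On the wider lists, most measured B cell genes lay near background on the saline hearts, where a 2-fold fall could hardly be detected. Of all genes, 48.2% were called lower in the heart. Of the 7 measured surface genes 1 was lower with DOX, of the 16 signaling genes 4, and of the 8 transcription factors 2, Ebf1 among them at -1.04 (adjusted p = 6.18e-11, limma). On the saline hearts the genes called lower had medians of 5.97 (Cd81), 3.14 (Xbp1), 2.73 (Sh3bp5), 2.09 (Bcl10), 1.83 (Rasgrp3), 1.29 (Ebf1) and 1.09 (Pik3ap1). Bcl6, at 1.39, was not called, and the other measured genes of these lists had lower medians than all of these. The medians of the differences on these lists were -0.14, -0.24 and -0.38, where that of all genes was -0.94. Cd72 (0.06), Ikzf1 (-0.02), Blk (-0.11) and Mzb1 (-0.11) were not called, nor were any of the T cell and NK cell markers. Cd72, Ikzf1 and Blk lay below 0.27 on all heart arrays, near background in both groups, where a further decrease was not detectable. The same limit holds for the T cell and NK cell markers, whose means on the saline hearts ran from 0.06 to 0.20 and from 0.24 to 0.50. Of the 6 measured cardiac muscle markers, 4 were called lower with DOX in the heart and 1 higher. Myh6 (-2.23), Tnnt2 (-2.37) and Tnni3 (-2.23) were lower. Myl2, named after its values were seen, was higher at 1.03 (adjusted p = 1.64e-06, limma). None of the 6 was called in PBMC in either grouping.

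The PBMC and heart differences were then set against each other in 1 fit over all 34 arrays. By label the PBMC difference exceeded that of the heart in 4 of 5 genes, by 2.36 ± 0.45 for Cd79b, 1.29 ± 0.48 for Ms4a1, 1.06 ± 0.17 for Blnk and 3.57 ± 0.65 for Cd37, beside 87.9% of all genes above and 3.17% below. The difference for Btk was 0.58 ± 0.37 (adjusted p = 0.137, limma) and did not pass. In the published grouping the PBMC difference was below that of the heart in 5 of 5, beside 37.4% of all genes below and 23.1% above, with values of -2.63 ± 0.33 for Cd79b, -1.45 ± 0.39 for Ms4a1, -1.13 ± 0.14 for Blnk, -2.04 ± 0.29 for Btk and -3.51 ± 0.44 for Cd37. Since 4 of the 5 genes lay at background in the heart on both arms, these tests set a PBMC difference beside one measured at background.

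Most of these calls depended on how the arrays were scaled. Under quantile normalization the median of all genes was 0.06 by label and -0.09 in the published grouping, and 5.62% of all genes were then called higher by label and 4.33% lower, and 4.04% higher and 8.7% lower in the published grouping. Cd37 alone kept its PBMC calls, at 1.76 by label and -1.98 in the published grouping, which is 1.71 and -1.89 from the median. Cd79b kept its direction at 0.89 and -0.94, under the 2-fold limit. Ms4a1 turned to -0.45 and 0.24 and Btk to -0.20 and 0.04, and Blnk was at 0.48 and -0.36. With the median of the expressed genes subtracted, the median of all genes was -0.23 by label and 0.22 in the published grouping, with 9.91% of all genes called higher and 16.1% lower by label, and 23.2% higher and 13.5% lower in the published grouping. There Cd37 (2.15 and -2.45) and Cd79b (1.20 and -1.31) kept their PBMC calls, while Ms4a1, Blnk and Btk were not called and Blnk changed sign in both groupings. In the heart, Btk was called higher under both of these scalings, at 1.30 and 1.64, beside 7.5% and 14.1% of all genes. With the median of the expressed genes subtracted, Cd79b (1.04) and Blnk (1.07) were called higher there too. Both were at background in the heart with DOX and with saline.

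**Figure D5:**
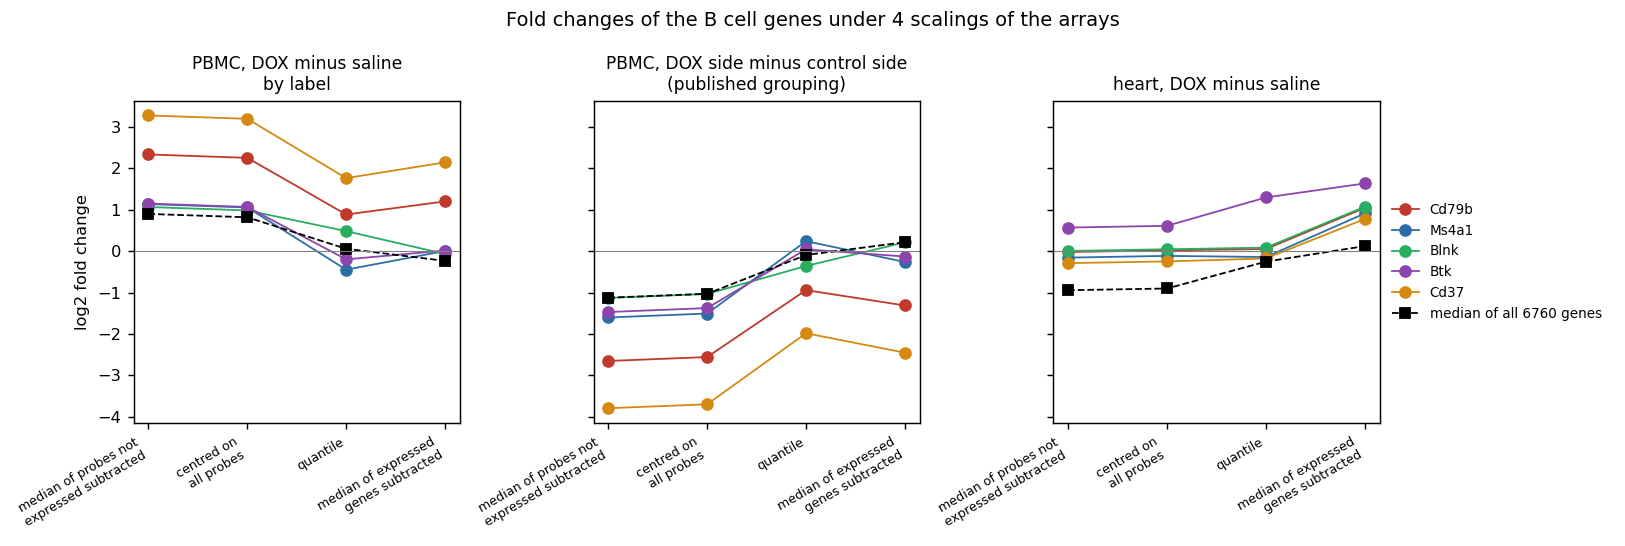
Log2 fold change (vertical axis) of the 5 measured B cell genes under 4 scalings of the arrays (horizontal axis), in PBMC by label, in PBMC by the published grouping and in heart, with the median of all 6760 genes as a dashed line. Cd37 stays farthest from the PBMC medians under all 4 scalings (1.76 to 3.28 by label), Cd79b stays beyond them, and Ms4a1, Btk and Blnk lie close to them.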

How the data were processed

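PBMC and left ventricle RNA was amplified and hybridised to Illumina RatRef-12 BeadChips, and the series analysed here holds 1 array per rat and tissue (34 arrays, 22523 probes). The methods also describe duplicate hybridisations, which were not analysed here. The deposited table holds log2 intensities, centred by the authors within each array, with the scale read from the values. Arrays have no read count, and the number of arrays and, for dim probes, the signal over background limit the precision. The methods of the study give the steps followed here: log2 values, minus the median of the probes not expressed on the same array, a moderated test per gene within each tissue, and calls at a false discovery rate under 0.05 and over 2-fold. The further adjustment of p-values by the probes not expressed, which the methods describe, was not applied. Probes were taken as expressed above a mean of 0.1524 on the deposited scale, the limit implied by the expressed flag of the published list (9386 probes expressed, 13137 not). The deposited table of raw intensities was not used, because its 34 columns of values match no sample label. The authors' own fold changes and p-values were not used, except that the published list was compared with both groupings of the PBMC arrays to find which of them it follows.

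Of the probes, 13793 had 1 gene symbol, 8730 none and 0 several. The table pairing probes with genes is that of the platform, and 13752 gene identifiers were found in RefSeq. For a gene with several probes the one with the highest mean over 34 arrays was kept. Fits were made with limma 3.58.1 (lmFit and eBayes, R 4.3.3), and adjusted p-values are Benjamini-Hochberg over the 6760 expressed genes. Python 3.11.15 (pandas 2.3.3, scipy 1.17.1) computed the rest. All 7 members were named, and from each list the first 3 measured genes in list order, with values, besides Ptprc and the 5 genes most alike. Cd52, Lcn2 and Myl2 fall outside that rule, as do the further B cell genes named by their level on the saline hearts. The members and lists were chosen with earlier results of these data known. Tested on simulated data at the PBMC groups by label, the fit recovered 74% of genes shifted by 1.5 on the log2 scale and 98% of those shifted by 3 among 6760 genes, with 6 false calls. The simulated noise was independent between genes and held no difference in brightness between arrays. These figures therefore do not cover calls that such a difference would produce. Blood and heart samples of 1 rat carry the same number according to the methods, and a fit with the rat as a block was run for the difference between tissues. Same-numbered PBMC and heart arrays deviated together by a correlation of -0.18 to 0.14, over 0.1 in 4 of 17 pairs by title. Such a pair comes from 1 rat only if the PBMC titles are right, and the fit with the rat as a block rests on that. Alternatives were other scalings, filters on dim genes, the mean of all probes, array weights, a replicate block, each array left out, the PBMC arrays titled saline 6 and DOX 1 left out together, and, chosen after seeing the data, the class of arrays by number of distinct values as a block.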

Additional observations from a re-analysis of the deposited data

Results flagged for a closer look

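Among 42 combinations of a gene and a group, 5 held an array whose gap to the nearest other array took up more of the group's range than Dixon's test allows. Chance alone sets this off in about 1 in 20 groups, and the PBMC arrays enter under both groupings. On the arrays labelled DOX, the array titled DOX 1 lay far below the others for Ms4a1 (0.794), Btk (0.385) and Cd37 (1.36). On the arrays labelled saline, and again on the DOX side of the published grouping, the array titled saline 4 lay far above the others for Cd37 (4.87 in both).

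The PBMC difference departed from the heart difference in a direct test. By label it was above the heart difference for Cd79b (2.36), Ms4a1 (1.29), Blnk (1.06) and Cd37 (3.57), beside 87.9% of all genes. From the median of all genes in this test, Cd79b lay 0.39, Ms4a1 -0.68, Blnk -0.91 and Cd37 1.60. In the published grouping the PBMC difference was below the heart difference for Cd79b (-2.63), Ms4a1 (-1.45), Blnk (-1.13), Btk (-2.04) and Cd37 (-3.51), beside 37.4% of all genes. All of these genes but Btk lay at background in the heart in both groups.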

How the results depend on the processing

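Of the 5 B cell genes called in PBMC by label, 1 was called under quantile normalization and 2 with the median of expressed genes subtracted, and in the published grouping likewise 1 and 2. With array class as a block, chosen after seeing the data, DOX 1 is the only array labelled DOX beside saline arrays of its class. In that fit all but Blnk (0.29) turned round by label: Cd79b -0.11, Ms4a1 -1.37, Btk -0.75 and Cd37 -0.45. The median of all genes turned round as well, to -0.22. The cause of these changes was not tested. In the heart 0 members were called higher, against 1 under quantile normalization and 3 with the median of expressed genes subtracted. The shares of all genes called higher there were 1.36%, 7.5% and 14.1%.

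By label, quantile normalization turned Ms4a1 to -0.448 and Btk to -0.199, and subtracting the median of expressed genes turned Blnk to -0.0689. In the published grouping Ms4a1 became 0.24 and Btk 0.0436 under quantile normalization, and Blnk 0.21 with the median of expressed genes subtracted. In the heart, Cd79b became 0.0201 on the deposited scale, 0.0503 under quantile normalization and 1.04 with the median of expressed genes subtracted, where Ms4a1 was 0.91, Cd37 0.78 and Blnk 1.07, and Blnk was -0.0298 with array weights. For the difference between tissues under quantile normalization, Ms4a1 was -0.31 and Btk -1.50 by label, and Ms4a1 0.38 in the published grouping.

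The all-gene calls by label were 3008 higher and 52 lower, against 380 and 293 under quantile normalization and 670 and 1088 with the median of expressed genes subtracted. In the published grouping they were 32 and 3679, against 273 and 588, and 1570 and 915. In the heart they were 92 and 3257, against 507 and 1203, and 952 and 1224.

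Leaving out each array, the count of members called ran from 4 to 5 by label and was 5 throughout in the published grouping. Over these fits, 41.3% to 52.7% of all genes were called higher by label and 52.7% to 57.4% lower in the published grouping. The PBMC arrays titled saline 6 and DOX 1 correlated at 0.929 with each other. Their median correlations with the other PBMC arrays were 0.68 and 0.60. Without both, 5 members were called higher by label and 5 lower in the published grouping, each beside 50.5% of all genes. The Blnk difference in the heart ran from -0.0183 to 0.0224. Same-numbered DOX and saline rats are different animals, and the correlation of their arrays' deviations was over 0.1 in 1 of 8 pairs in heart (-0.14 to 0.15) and in 5 of 8 in PBMC (-0.42 to 0.78), so the numbers were not taken as pairs. With the replicate block 5 members were called in PBMC by label, beside 44.1% of all genes called higher. In the published grouping 5 were called, beside 50.4% of all genes called lower. In the heart 0 were called, beside 1.38% called higher and 48% lower, and the heart difference of Blnk became -0.0052. With the rat as a replicate block, which takes the PBMC titles as right, the difference between tissues passed in 4 members by label. The same count passed without it, where 87.9% of all genes were above and 3.17% below. Signal limits what can be said of Cd22 and Pax5 in both tissues, and of all members but Btk in the heart.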
